A study of Mus musculus with 10 samples.

Results

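The brush border is the carpet of microvilli on the urine side of the proximal tubule cell, and the proteins described here are peptidases and endocytic receptors anchored in it. Probe sets were taken for 10 genes: the peptidases Anpep, Dpp4, Mme, Mep1a, Mep1b, Enpep and Ace, the gamma-glutamyl transferase Ggt1, and the receptors Lrp2 and Cubn. The platform annotation pairs 14 of the 22690 probe sets of the array with 1 of these symbols, and they cover 9 of the 10 genes, among 12394 genes named on the array; for Ggt1 no signal was analysed here, as the annotation pairs no probe set with it. Of the 14, 13 passed the filter on dim probe sets and were tested, and the second Dpp4 probe set (1441342_at) did not.

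The peptidases cut filtered peptides, hormones among them, into fragments and amino acids at the cell surface, so that transporters of the same membrane can take them up. Megalin, the product of Lrp2, and cubilin, the product of Cubn, bind filtered albumin, vitamin carriers and other small proteins and take them into the cell for breakdown in lysosomes. In kidney these genes mark the proximal tubule, yet several are also made elsewhere: Mme and Enpep in podocytes, Ace in endothelium, and Anpep and Mme in blood leukocytes.

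The RNA came from C57/BLACK6 male mice aged 7 weeks and weighing about 20 g. For every group the labels describe intraperitoneal 4-thiouridine (s4U, 200 µM, with bi-distilled water named as its control) given with tritiated cytidine in saline. Normal mice had their s4U at 0 h and at 1 h, and the kidney was removed at 2 h. In the other mice, under diethylether, the vessels of the left kidney were clamped for 45 min, s4U was given 1 h and 2 h after reperfusion, and the unclamped contralateral kidney was taken at 3 h. The labels describe no sham operation, so anaesthesia, surgery and time cannot be told apart from the kidney group. For each kidney there were 2 total RNA arrays, 2 arrays after amplification of total RNA, and 1 array of the newly transcribed fraction, which carries s4U; these 6 groups hold the 10 arrays. In the labels the replicates are biological, without a link from array to mouse. So p-values measure the spread between these arrays, which may in part be technical. In tests over both kidneys or all preparations, the error also holds any gap in the kidney difference between preparations. With 1 newly transcribed array in each kidney group, no p-value measures the spread between replicates of that fraction.

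Values below are signals normalized on a log2 scale, in which 1 unit is a doubling, or the deposited linear intensities where so named. A difference is given with the standard error (SE) of limma, and p-values are limma's, adjusted by Benjamini-Hochberg over all 13575 probe sets tested; a probe set passed at an adjusted p under 0.05. Levels of different genes were not set against each other, and the distance between 2 probe sets of a gene serves only to show how it moved across arrays.

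Markers of the labelled tissue were read first. Passing the filter says little of the tissue, as 13575 of the 22690 probe sets did. Of the markers outside the 10 genes, Slc34a1, Slc5a2, Aqp1, Slc22a6, Kap and Gpx3 had mean signals above the 95th percentile of all probe sets. Of 16 proximal tubule markers, which include the 10 genes, 15 had a probe set and all 15 passed the filter; their mean log2 signal was 10.22 to 10.35 over the 4 total RNA arrays, 9.85 to 9.92 over the 4 amplified arrays, and 9.33 and 9.10 on the normal and contralateral newly transcribed arrays. Arrays differed in brightness and in 3' bias: the median deposited intensity ran from 18.6 on the contralateral newly transcribed array to 70.3 on the normal one. The Gapdh 3'/5' ratio was 0.938 to 1.12 in total RNA, 4.21 to 6.23 in amplified RNA, and in newly transcribed RNA 12.7 for the normal and 68.9 for the contralateral kidney. Its part in the results below was not tested. In bulk tissue, fewer cells of a type and less RNA per cell cannot be told apart.

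Only Lrp2 and Anpep had a probe set that passed between contralateral and normal kidneys, in amplified RNA and in opposite directions. Their promoters are therefore shown, as the 250 bases before the start annotated by RefSeq (build GRCm38.p6), read 5′ to 3′ on the minus strand, at chr2:69586030-69586279 for Lrp2 and chr7:79848211-79848460 for Anpep. Capitals mark each CG dinucleotide.
Lrp2: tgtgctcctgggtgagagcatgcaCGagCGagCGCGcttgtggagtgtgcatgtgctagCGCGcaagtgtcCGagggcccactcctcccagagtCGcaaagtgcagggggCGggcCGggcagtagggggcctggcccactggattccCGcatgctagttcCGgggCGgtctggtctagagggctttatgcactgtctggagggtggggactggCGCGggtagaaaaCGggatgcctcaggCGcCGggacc
Anpep: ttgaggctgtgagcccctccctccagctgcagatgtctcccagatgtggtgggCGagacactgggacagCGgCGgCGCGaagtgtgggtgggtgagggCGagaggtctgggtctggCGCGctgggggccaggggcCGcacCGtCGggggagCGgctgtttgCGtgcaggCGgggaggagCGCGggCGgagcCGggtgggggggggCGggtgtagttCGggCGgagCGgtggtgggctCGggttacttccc
The Lrp2 window holds 18 CG dinucleotides and 66.4% G and C, and the Anpep window 23 and 72.8%, against a median of 52.4% over all 32851 windows of the table. The other receptor, Cubn, has a window of 39.6% with 2 CG dinucleotides, so the genes do not share a base composition at their starts. For the brush border genes 15 windows were read, 4 of them of Ggt1. None was of Mep1b, as windows of these genes on its chromosome, 18, were left out here. In the 15 windows 39.6% to 73.6% of bases were G or C. The letters GTTAAT, part of the site bound by the tubular factor HNF1, were searched on both strands. They were found in 0 of the 15 windows and in 6.43% of all windows of this length. Some windows, among them one of Ace, lie inside the gene, and which annotated starts are used in kidney was not tested.

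In total RNA, no brush border gene passed between contralateral and normal kidneys. By limma, 0 of the 13 probe sets passed, where 1.91% of all probe sets did in either direction, and 1 of 13 had an unadjusted p under 0.05, against 14.8% of all. The 13 differences lay between -0.31 and 0.25 on the log2 scale, with a median of -0.11 against -0.01 over all probe sets tested. Mep1a, the alpha subunit of the metalloprotease meprin, gave log2 signals of 11.51 and 11.51 in normal and 11.49 and 11.58 in contralateral kidneys. Those ranges overlap, and the difference of 0.03 ± 0.08 (SE) had a 95% interval from -0.14 to 0.21. The single probe set with an unadjusted p under 0.05 was 1451911_a_at of Ace, the angiotensin-converting enzyme, at 8.61 and 8.58 in normal and 8.39 and 8.19 in contralateral kidneys. The contralateral arrays were the lower ones without overlap, yet the difference of -0.31 ± 0.14 (SE) did not pass (adjusted p = 0.329), and the second Ace probe set (1427034_at) differed by 0.25 ± 0.16 (SE) in the other direction.

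The remaining peptidases in total RNA had intervals of unequal width. Mep1b, the beta subunit of meprin, differed by -0.18 ± 0.09 (SE; 95% interval -0.38 to 0.02), and Enpep, aminopeptidase A, which trims angiotensin II, by -0.13 ± 0.11 (SE; 95% interval -0.37 to 0.11). Anpep, aminopeptidase N, differed by -0.12 ± 0.14 (SE), and Dpp4, which clips incretin hormones, by 0.13 ± 0.16 (SE; 95% interval -0.23 to 0.49). The 2 probe sets of Mme, neprilysin, had the values -0.13 ± 0.16 (SE; 95% interval -0.49 to 0.22) and 0.25 ± 0.21 (SE; 95% interval -0.22 to 0.72). For the receptors, both Lrp2 probe sets (-0.22 ± 0.13 and -0.10 ± 0.11, SE) and both Cubn probe sets (-0.11 ± 0.10 and -0.09 ± 0.11, SE) had small differences below 0. With these errors, a shift of Lrp2 (1427133_s_at) as large as -0.51, the lower end of its 95% interval, cannot be told from none.

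**Figure D1:**
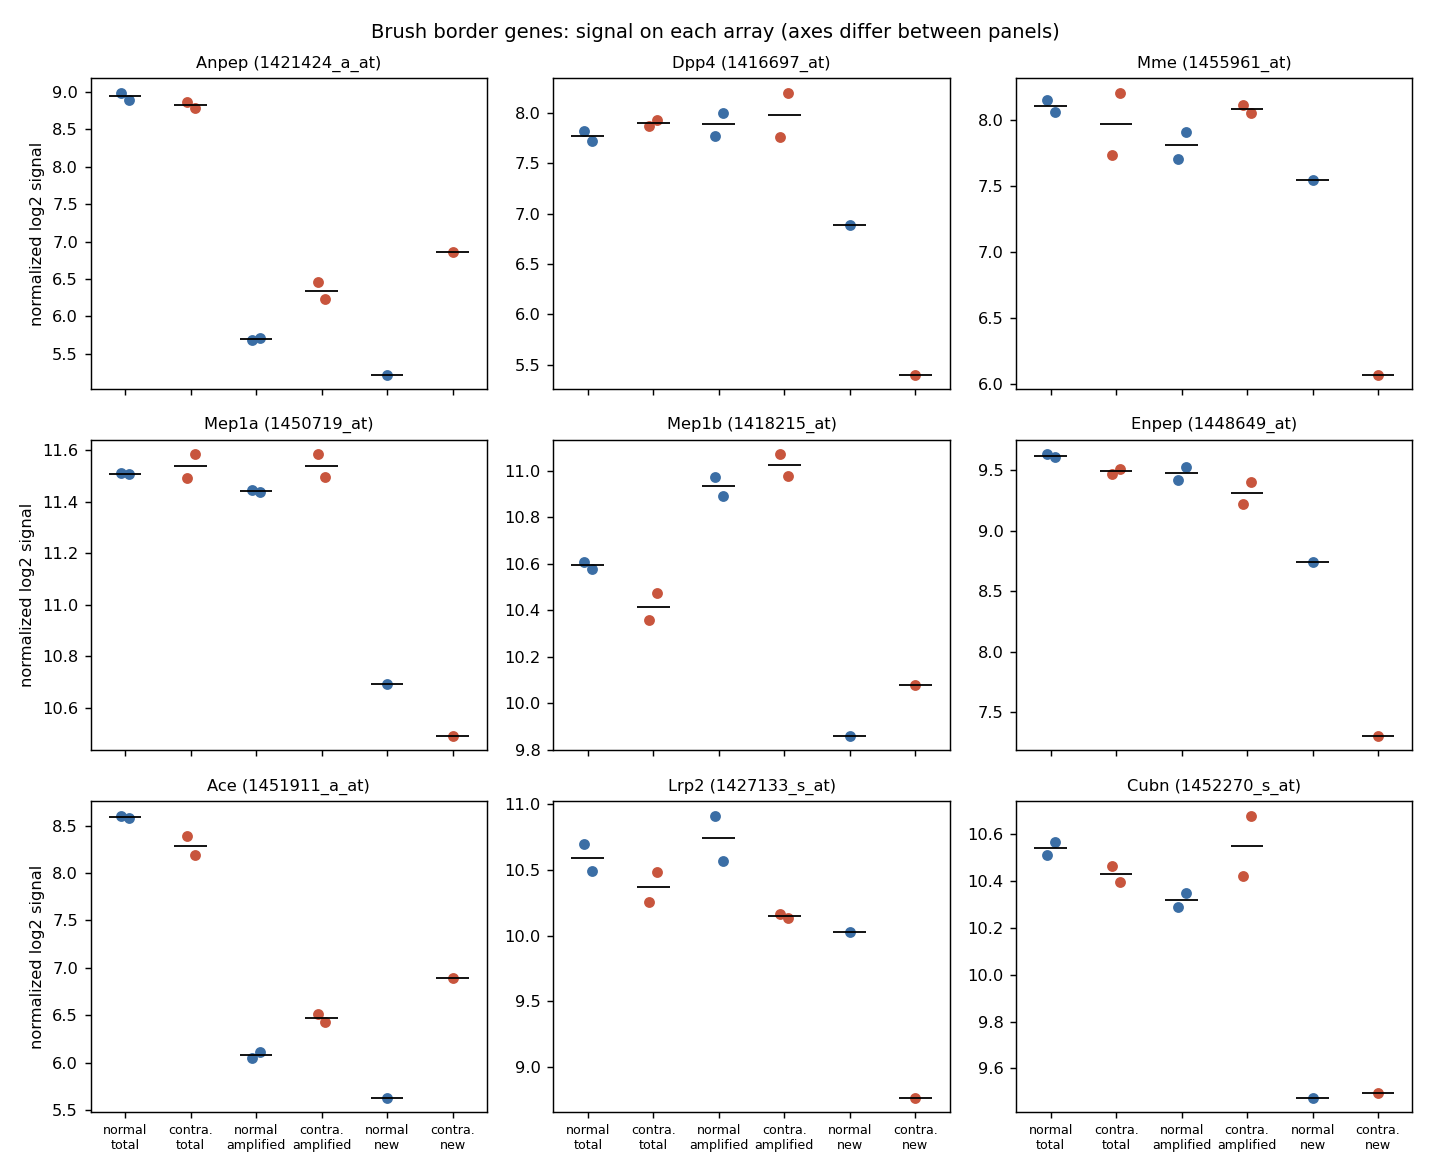
Normalized log2 signal (y axis, scaled separately in each panel) of the brightest probe set of each of the 9 genes on every array, by kidney group and RNA preparation (x axis); points are arrays and lines are group means, with 2 arrays in each total and amplified group and 1 in each newly transcribed group (new). Anpep and Ace stand far lower in amplified than in total RNA, and all 9 genes are lowest on a newly transcribed array.

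In amplified total RNA, 2 of the 13 probe sets passed, 1 lower and 1 higher, where 10.3% of all probe sets passed, 6.22% of all lower and 4.1% higher. The 1427133_s_at probe set of Lrp2 gave 10.91 and 10.57 in normal and 10.16 and 10.14 in contralateral kidneys. It fell by 0.59 ± 0.13 (SE) on the log2 scale (adjusted p = 0.0148 by limma), and its groups did not overlap. The direct test of amplified against total RNA did not separate this difference from the -0.22 of total RNA (-0.37 ± 0.18, SE; adjusted p = 0.337 by limma). The other Lrp2 probe set, 1452320_at, gave 10.06 and 10.20 against 9.82 and 10.12, which overlap, and its difference of -0.16 ± 0.11 (SE) did not pass (adjusted p = 0.416). The suffix _s_at marks a probe set whose probes match more than 1 transcript. The Lrp2 call was lost without normal amplified replicate 1, at -0.42 (adjusted p = 0.153 by limma), at -0.56 with median centring (adjusted p = 0.0689), and at -0.59 without an intensity trend (adjusted p = 0.0588); over all 20 alternatives its adjusted p ran from 0.0135 to 0.153.

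Anpep rose by 0.65 ± 0.14 (SE) in amplified RNA (adjusted p = 0.0129 by limma). Its log2 signals were 5.69 and 5.71 in normal and 6.46 and 6.24 in contralateral kidneys, without overlap. The deposited intensities behind them were low, at 38.2 and 40.9 in normal and 48.9 and 76.3 in contralateral kidneys. On the total RNA arrays, where the same probe set read 581, 556, 375 and 391, the difference was -0.12. Whether the contralateral difference of Anpep departs between amplified and total RNA was tested directly: it was larger by 0.77 ± 0.20 (SE) in amplified RNA and missed the threshold (adjusted p = 0.0517), passing in 7 of 19 alternative fits. The Anpep rise in amplified RNA lost its call without normal amplified replicate 1 or 2 (0.64 and 0.65; adjusted p = 0.0901 and 0.0869 by limma) or contralateral amplified replicate 1 (0.54; adjusted p = 0.0614), and with only the 4 amplified arrays (0.68; adjusted p = 0.0604); over the 20 alternatives its adjusted p ran from 0.00915 to 0.0901.

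The other peptidases and Cubn did not pass in amplified RNA. Ace (1451911_a_at) was at 6.05 and 6.11 in normal and 6.51 and 6.43 in contralateral kidneys, without overlap; its difference of 0.39 ± 0.14 (SE) had an adjusted p of 0.101 by limma. The 2 meprin subunits, Mep1a (0.10 ± 0.08, SE) and Mep1b (0.09 ± 0.09, SE), had small differences above 0, as did both Mme probe sets (0.28 ± 0.16 and 0.24 ± 0.21, SE) and Dpp4 (0.09 ± 0.16, SE). Enpep was at -0.16 ± 0.11 (SE). The 2 Cubn probe sets differed by 0.23 ± 0.10 and -0.12 ± 0.11 (SE), with adjusted p = 0.197 and 0.544 by limma; 1452270_s_at passed without contralateral amplified replicate 1 (0.36, adjusted p = 0.0468), in 1 of 20 alternatives. The median of the 13 differences was 0.10, against 0.02 over all probe sets tested.

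**Figure D2:**
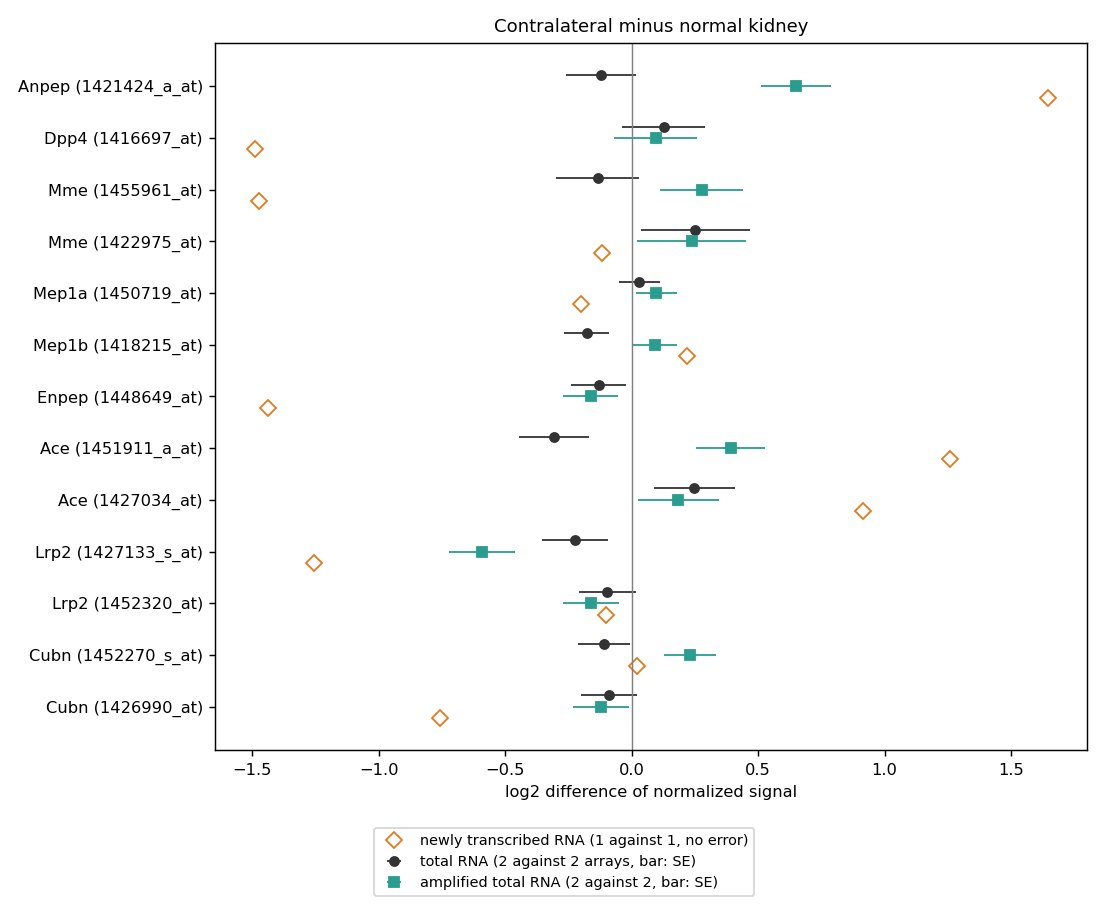
Contralateral minus normal log2 difference (x axis) of the 13 tested probe sets (y axis) in total RNA and amplified total RNA, each 2 against 2 arrays with bars of 1 SE, and in newly transcribed RNA, 1 array against 1 with no error. Total RNA values sit within -0.31 and 0.25, amplified values within -0.59 and 0.65, and newly transcribed values spread from -1.49 to 1.65.

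Over all 3 preparations together, 0 of the 13 probe sets passed by limma, against 0.442% of all, and 3 had an unadjusted p under 0.05, where 14.6% of all probe sets did. These 3 were Lrp2 1427133_s_at (-0.58 ± 0.16, SE; adjusted p = 0.169), Ace 1427034_at (0.36 ± 0.15, SE; adjusted p = 0.32) and Anpep (0.54 ± 0.23, SE; adjusted p = 0.328). Without the normal or the contralateral newly transcribed array, Anpep was at 0.26 and 0.27 and Ace 1427034_at at 0.21 and 0.22. The 2 meprin subunits were at 0.01 each. For the difference between amplified and total RNA in the contralateral effect, 0 of 13 passed by limma, against 4.46% of all. Here 3 of 13, Anpep, Ace 1451911_a_at and Cubn 1452270_s_at, had an unadjusted p under 0.05, where 17.5% of all did.

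Between the 2 newly transcribed arrays the brush border genes differed in both directions. With 1 array against 1 there is no replicate check and no test, and a difference of at least 2-fold is counted: 4 of the 13 probe sets were lower by this measure on the contralateral array and 2 higher, where 32.8% of all probe sets differed by 2-fold, 18.5% lower and 14.4% higher. The share of members that were higher is near that of all probe sets. Dpp4 read 6.89 on the normal and 5.40 on the contralateral array, a difference of -1.49, from deposited intensities of 192 and 13.9. Enpep read 8.74 and 7.30 (-1.44), Mme (1455961_at) 7.54 and 6.07 (-1.47), and Lrp2 (1427133_s_at) 10.02 and 8.77 (-1.26). Other probe sets of 3 of these genes did not show it: Lrp2 1452320_at differed by -0.10, and Mme 1422975_at, dim on these arrays, by -0.12. The dim, untested Dpp4 1441342_at read 4.70 and 4.98. The contralateral array was also the dimmer one and had the Gapdh 3'/5' ratio of 68.9 against 12.7; the part of the 3' bias in these differences was not tested.

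Anpep and Ace went the other way on the newly transcribed arrays. Anpep read 5.22 on the normal and 6.87 on the contralateral array (1.65), from deposited intensities of 39.2 and 44.1. Ace (1451911_a_at) read 5.63 and 6.89 (1.26), from intensities of 60.7 and 44.8, and its second probe set 5.27 and 6.19 (0.92). So both were nearly level, or lower, in deposited intensity, and higher only after the arrays were put on one scale. The meprin subunits stayed close together: Mep1a read 10.69 and 10.49 (-0.20) and Mep1b 9.86 and 10.08 (0.22). With a pseudocount of 50, Dpp4 (-0.97) and Ace (0.84) fell short of 2-fold, and with median centring Cubn 1426990_at passed it (-1.26).

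For Mme, Lrp2 and Cubn, the 2 probe sets of a gene gave different newly transcribed values. Mme differed by -1.47 with 1455961_at and by -0.12 with 1422975_at, which read 4.89 on the normal and 4.78 on the contralateral array. The deposited intensities of 1422975_at there were 26.7 and 7.4, so this dim probe set left little room for a fall. Lrp2 differed by -1.26 with 1427133_s_at and by -0.10 with 1452320_at, and Cubn by 0.02 with 1452270_s_at and by -0.76 with 1426990_at. On the total RNA arrays, by contrast, the 2 Cubn probe sets kept a steady distance of 0.09 to 0.18 log2 units. That distance was 0.97 and 1.0 on the normal and 1.30 and 1.38 on the contralateral amplified arrays, and 1.36 and 2.14 on the normal and contralateral newly transcribed arrays. The Ace pair stood 1.12 and 1.25 apart in normal and 0.55 and 0.71 in contralateral total RNA, turned to between -0.62 and -0.13 in amplified RNA, and was at 0.36 and 0.70 on the newly transcribed arrays.

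**Figure D3:**
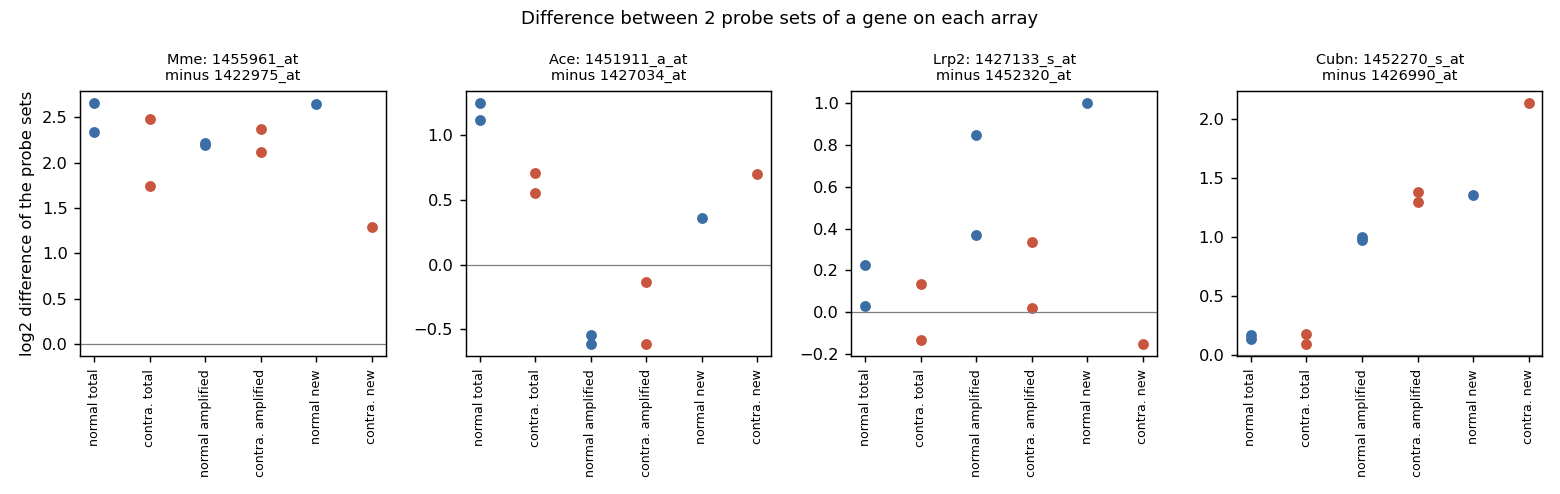
Log2 difference between the 2 probe sets of Mme, Ace, Lrp2 and Cubn (y axis, scaled separately in each panel) on each of the 10 arrays, by group (x axis); each point is 1 array. The Cubn pair lies between 0.09 and 0.18 in total RNA and at 0.97 or more elsewhere, while the Ace pair moves from 0.55 to 1.25 in total RNA to between -0.62 and -0.13 in amplified RNA.

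Amplified and total RNA were next compared over both kidneys, 4 arrays against 4. Of the 13 probe sets, 5 were lower in amplified RNA and 1 was higher, where 38.4% of all probe sets passed, 17.6% lower and 20.7% higher. Anpep was lower by the most: its log2 signal was 8.99, 8.90, 8.86 and 8.79 on the 4 total RNA arrays and 5.69, 5.71, 6.46 and 6.24 on the 4 amplified arrays. It fell by 2.86 ± 0.26 (SE) on the log2 scale (adjusted p = 6.73e-05 by limma), and no amplified array reached the level of a total RNA array. Ace (1451911_a_at) fell by 2.16 ± 0.24 (SE; adjusted p = 0.000149), from deposited intensities of 447, 445, 271 and 255 to 53.4, 59.6, 51.2 and 91.5, and its second probe set fell by 0.78 ± 0.17 (SE; adjusted p = 0.00499).

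Each receptor was lower in amplified RNA with 1 probe set of its pair. Cubn 1426990_at fell by 1.07 ± 0.15 (SE; adjusted p = 0.000466 by limma), while 1452270_s_at was at -0.05 ± 0.12 (SE). Lrp2 1452320_at fell by 0.37 ± 0.11 (SE; adjusted p = 0.0276), while 1427133_s_at was at -0.03 ± 0.18 (SE). The Lrp2 call was lost in 7 of 10 fits that left out an array, each time a total or amplified array and never contralateral amplified replicate 2 (-0.30 to -0.40; adjusted p = 0.0512 to 0.0847), and with median centring (-0.08, adjusted p = 0.692). Mep1b was the one that was higher in amplified RNA, by 0.48 ± 0.11 (SE; adjusted p = 0.00787), at 10.61, 10.58, 10.36 and 10.47 in total and 10.97, 10.89, 11.07 and 10.98 in amplified RNA. Its partner subunit Mep1a was at -0.03 ± 0.09 (SE), Enpep at -0.16 ± 0.21 (SE), Dpp4 at 0.10 ± 0.27 (SE), and the Mme probe sets at -0.09 ± 0.27 and -0.01 ± 0.16 (SE).

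Newly transcribed RNA held less signal of the brush border genes than amplified total RNA. Over both kidneys, 2 arrays against 4, 11 of the 13 probe sets were lower and 0 higher, where 28.6% of all probe sets passed, 16.7% lower and 11.9% higher. The median of the 13 differences was -1.02, against -0.01 over all probe sets tested. Of the 13, 7 had a mean signal above the 90th percentile of all probe sets, and all 7 were lower, where 31% of the 2263 tested probe sets above that percentile were lower; this split by signal was chosen after the values were seen.

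Among the peptidases, Dpp4 fell by 1.79 ± 0.33 (SE) on the log2 scale (adjusted p = 0.0032 by limma), from 7.77, 8.0, 7.76 and 8.20 on the amplified arrays to 6.89 and 5.40 on the newly transcribed ones. Both newly transcribed arrays lay below all 4 amplified arrays, the contralateral one by more. Enpep fell by 1.37 ± 0.26 (SE; adjusted p = 0.0042), Mep1b by 1.01 ± 0.14 (SE; adjusted p = 0.000784) and Mep1a by 0.90 ± 0.12 (SE; adjusted p = 0.000619). The meprin subunits were lower in both kidneys: Mep1a was at -0.75 in normal and -1.05 in contralateral kidneys, and Mep1b at -1.08 and -0.95. Dpp4 was at -1.0 in normal and -2.58 in contralateral kidneys and Enpep at -0.73 and -2.01, with 1 newly transcribed array in each kidney group and no test of the gap.

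Mme fell by 1.14 ± 0.33 (SE; adjusted p = 0.0272 by limma) with 1455961_at and by 0.88 ± 0.20 (SE; adjusted p = 0.00896) with 1422975_at. The 1455961_at probe set lost its call in 4 of 18 alternatives: without the contralateral newly transcribed array (-0.37, adjusted p = 0.214), without contralateral amplified replicate 1 or 2 (-1.02 and -1.04; adjusted p = 0.0704 and 0.0728), and in the fit with the replicate number as a block (-1.07, adjusted p = 0.0764). Leaving out 1 newly transcribed array also moved the size of other falls: without the contralateral one Dpp4 was at -1.0 and Enpep at -0.72, and without the normal one at -2.55 and -2.03. The calls of Dpp4 and Enpep held in all 18 alternatives.

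Both receptors fell with both probe sets. Cubn was lower by 1.53 ± 0.18 (SE; adjusted p = 0.000423 by limma) with 1426990_at, at 9.29, 9.38, 9.12 and 9.30 on the amplified arrays and 8.12 and 7.36 on the newly transcribed ones, and by 0.95 ± 0.15 (SE; adjusted p = 0.00139) with 1452270_s_at. Lrp2 fell by 1.05 ± 0.22 (SE; adjusted p = 0.00653) and 1.08 ± 0.14 (SE; adjusted p = 0.000631). With 1452320_at the Lrp2 difference was -1.11 in normal and -1.05 in contralateral kidneys, and with 1427133_s_at -0.71 and -1.38. These calls held in all 18 alternatives, though 1427133_s_at moved to -0.61 without the contralateral newly transcribed array.

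Anpep and Ace 1451911_a_at were the 2 that did not pass. Anpep was at 0.02 ± 0.32 (SE), with -0.48 in normal and 0.52 in contralateral kidneys, and Ace 1451911_a_at at -0.01 ± 0.29 (SE), with -0.45 and 0.42. These are the probe sets whose signal was lower by the most in amplified than in total RNA. On the amplified arrays their deposited intensities were 38.2 to 76.3 for Anpep and 51.2 to 91.5 for Ace 1451911_a_at. The median intensities of those arrays were 26.6 to 49.8, and the log2 scale used understates changes of dim probe sets. Without the normal newly transcribed array Anpep passed as higher (0.70, adjusted p = 0.0382 by limma), and without the contralateral one it was at -0.69 (adjusted p = 0.0569). The second Ace probe set fell by 1.02 ± 0.20 (SE; adjusted p = 0.00511), and by 0.66 without the normal newly transcribed array.

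**Figure D4:**
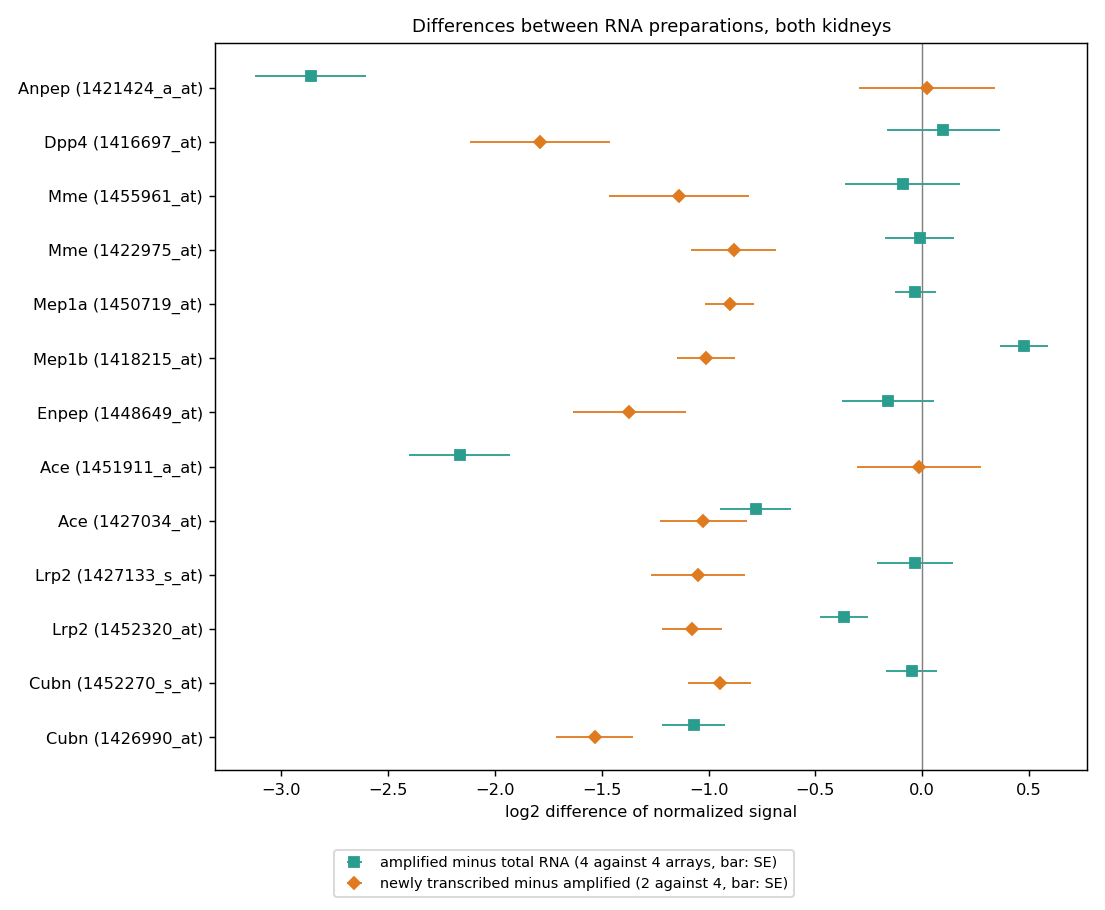
Log2 difference (x axis, bars of 1 SE) of the 13 tested probe sets (y axis) between amplified and total RNA, 4 against 4 arrays, and between newly transcribed and amplified RNA, 2 against 4 arrays. All differences of newly transcribed RNA but those of Anpep (0.02) and Ace 1451911_a_at (-0.01) lie between -1.79 and -0.88, and Anpep and the same Ace probe set are lowest for amplified against total RNA, at -2.86 and -2.16.

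The untested Dpp4 probe set (1441342_at) was dim throughout, with deposited intensities from 9.3 to 51.3. Its log2 signal was 5.67 and 5.25 in normal and 5.03 and 5.52 in contralateral total RNA, which overlap, and 4.70 and 4.98 on the normal and contralateral newly transcribed arrays.

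Genes that work beside the brush border proteins were read from 5 lists. In total RNA 1 of the 4 tested genes of the transcription factor list passed, Ppara, and 0 of the other lists did by limma, with 0 to 2 of each at an unadjusted p under 0.05. Ppara is a receptor that turns on fat oxidation, and it rose by 1.04 ± 0.17 (SE; adjusted p = 0.0115 by limma); in amplified RNA Ppara fell by 1.0 ± 0.17 (SE; adjusted p = 0.00336). Tested directly, the difference of amplified from total RNA in the Ppara kidney effect was -2.04 ± 0.24 (SE, adjusted p = 0.000706 by limma). Of the genes named next, Lgmn passed this direct test too (-0.60 ± 0.14, SE, adjusted p = 0.0404). Rab7, Slc9a3r1, Slc9a3r2 and Treh did not. In amplified RNA, 10.3% of all probe sets passed, 6.22% lower and 4.1% higher. Of each list 0 to 2 genes passed, counts too small to set against these shares. The endosomal and lysosomal list had 1 of 12 lower, the protease gene Lgmn (-0.72), and 1 higher, Rab7 (0.44), a GTPase of late endosomes. The scaffold list had 1 of 12 lower, Slc9a3r1 (-0.56), which tethers apical transporters, and 1 higher, its relative Slc9a3r2 (0.85). Of 8 other brush border enzymes 1 was higher, the trehalose-cleaving Treh (0.78), and of 13 apical transporters 0 passed by limma, with 3 at an unadjusted p under 0.05.

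In newly transcribed against amplified RNA, where 16.7% of all probe sets were lower and 11.9% higher, 5 of the 8 other brush border enzymes were lower and 0 higher, with a median of -0.86; Alpl, alkaline phosphatase, was at -0.88 and Folh1 at -1.01. Of the 12 endocytic partners and lysosomal proteases 6 were lower, among them the folate receptor Folr1 (-1.46), the recycling GTPase Rab11a (-1.22) and the lysosomal protease Ctsl (-0.70), and 1 was higher, the endosomal chloride transporter Clcn5 (1.27). Of 13 apical transporters 4 were lower, led by the peptide carrier Slc15a2 (-1.57) and the amino acid carrier subunit Slc3a1 (-1.17), and 1 was higher, the glucose carrier Slc5a1 (0.67). Of 12 scaffold genes 2 were lower, Ush1c (-1.20) and Pdzk1 (-0.70), a share near that of all probe sets, and 0 higher. Among 4 transcription factors 1 was higher, Hnf4a (0.76 ± 0.12, SE; adjusted p = 0.0018 by limma), a regulator of proximal tubule genes, and 0 were lower. The median was -0.62 for the endocytic list, -0.40 for the transporters, -0.34 for the scaffold genes and 0.38 for the transcription factors.

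**Figure D5:**
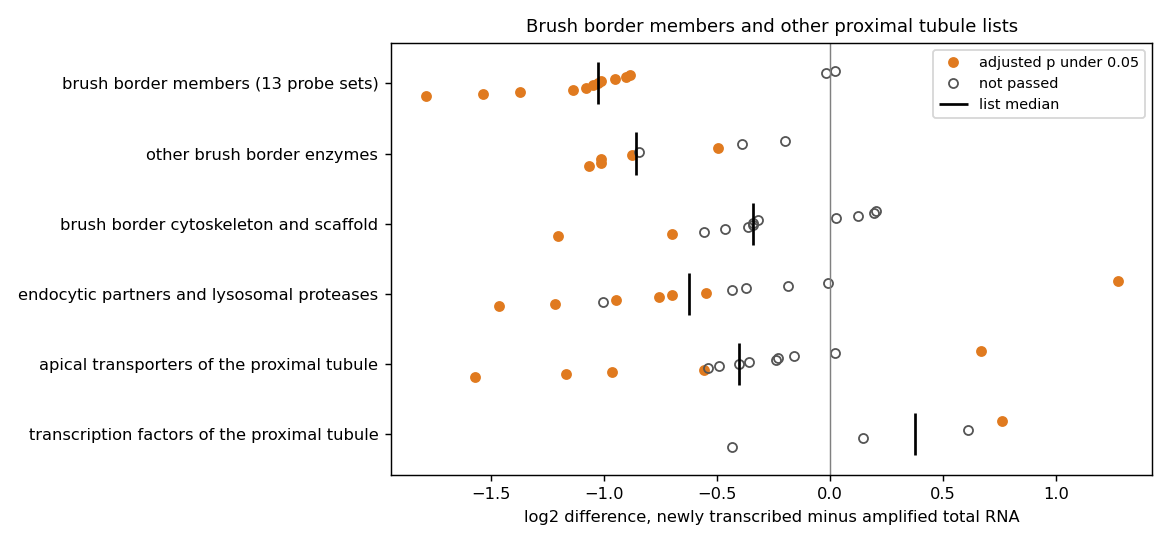
Log2 difference between newly transcribed and amplified total RNA (x axis) for the 13 brush border probe sets and for each tested gene of 5 other proximal tubule lists (y axis); filled points passed at an adjusted p under 0.05, and black bars are list medians. The median is -1.02 for the brush border probe sets, -0.86 for the other brush border enzymes and 0.38 for the transcription factors.

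Markers of cells that share some of these genes were read on the same arrays, as the mean log2 signal of each list. The 6 endothelial markers, all of which passed the filter, stood at 7.49 in normal and 7.39 to 7.60 in contralateral total RNA, and at 6.28 and 5.81 on the normal and contralateral newly transcribed arrays, where the Ace probe sets were higher on the contralateral array. The markers differed between those arrays: Pecam1 (-1.55) and Kdr (-1.45) were lower on the contralateral one. Cdh5 was at 0.46, and Tek, Emcn and Tie1 lay between -0.19 and 0.02. The 4 podocyte markers, 3 above the filter, stood at 6.97 and 6.77 on those arrays and at 7.36 to 7.38 in normal and 7.24 to 7.39 in contralateral amplified RNA. The 7 leukocyte markers, 4 above the filter, stood at 5.27 to 5.46 in normal and 5.34 to 5.70 in contralateral amplified RNA, where Anpep rose, and at 5.15 and 5.43 on the newly transcribed arrays. By limma 0 markers of these 3 lists passed between kidneys in total or amplified RNA, where 1.91% and 10.3% of all probe sets did. Of these markers 0 had an unadjusted p under 0.05. So few markers cannot show that the cells were unchanged. The 4 markers of adipose tissue, muscle and adrenal, 2 above the filter, stood at 4.50 on the normal and 5.95 on the contralateral newly transcribed array, and the tubular injury markers at 6.19 and 7.80. The part of all these markers in the results was not tested.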

How the data were processed

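The authors deposited 1 linear signal intensity for each probe set and array; how the signals were summarised and scaled is not given in the sources used here. Columns were used to isolate RNA, and a T7-based method to amplify and label it, per the labels' protocols. The intensities were transformed here as log2(intensity + 11.8), 11.8 being the 25th percentile of all values, and quantile normalized over the 10 arrays. A log2 difference on this scale understates changes of dim probe sets. After 64 control probe sets were set aside, those with a mean above the 40th percentile, 13575 of 22690, were tested with limma 3.58.1 in R 4.3.3 (lmFit, eBayes with trend, Benjamini-Hochberg adjustment). Contrasts within a preparation and their difference came from a model of 6 group means, with 4 residual degrees of freedom, and the others from kidney plus preparation, with 6. The number of arrays limits the precision.

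Genes were named from the platform annotation, where 20380 probe sets have 1 symbol and 691 several. All probe sets of the 10 genes are accounted for, and the brightest probe set stands for a gene of another list. Of each list, up to 3 genes with the smallest p were named, and any lone gene that passed in a direction. Members and lists were chosen with earlier results of these data known. Alternatives were median centring, normalization within preparations, pseudocounts of 1 and 50, no filter or the 60th percentile, no trend, fewer arrays, each array left out, and a replicate block. Shared replicate numbers were not taken as pairs, as the labels link no array to a mouse. Deviations of same-numbered arrays correlated by -0.07 to 0.10 over the 4 groups with 2 arrays. The highest value, 0.10, was that between total and amplified RNA of the same kidney group, in each. With 2 arrays in a group, this cannot tell whether these arrays share mice. The fits were tested on simulated data. Promoter windows are from RefSeq (GRCm38.p6). Those of 9 of the 10 genes were used, all but Mep1b, as brush border windows on its chromosome, 18, were left out here.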

Additional observations from a re-analysis of the deposited data

How the results depend on the processing

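In amplified RNA, 2 of the 13 probe sets passed between kidneys. This count was 1 with median centring, 1 without an intensity trend, 1 with only the 4 amplified arrays, and 0 to 2 when each array was left out, 0 without normal amplified replicate 1; the cause was not tested, beyond fewer arrays in the last 2. The count of 0 for the difference between amplified and total RNA became 1, Anpep, with normalization within preparations, 1 with a pseudocount of 1, 1 with the 60th percentile as filter, 1 with only the 8 total and amplified arrays, and 0 to 1 when each array was left out. In total RNA and over all preparations the count stayed 0 in all 20 and 19 alternatives. It was 5 to 6 of 13 for amplified against total RNA, 10 to 12 for newly transcribed against amplified RNA, and 4 to 7 at 2-fold between the newly transcribed arrays. The replicate block left the counts at 2 in amplified RNA and 0 in total RNA, and at 10 for newly transcribed RNA, where Mme 1455961_at was lost; numbers are not known to pair arrays. Of 1553 values of single probe sets, 21 lost and 11 gained a call, 0 called values changed sign, and 69 that passed in neither fit did. The share of all probe sets called in amplified RNA ran from 3.78% to 13.1%, in total RNA from 0.354% to 2.78%, and for newly transcribed against amplified RNA from 15.3% to 49.6%. Median centring put the median of all probe sets at 0.17 for amplified against total RNA and at -0.21 between the newly transcribed arrays. Higher calls made up 54.1% of all calls for amplified against total RNA and 66.8% with median centring. For newly transcribed against amplified RNA they were 41.6%, 29% with median centring and 26% with normalization within preparations, which moved the median of all to -0.14. Between the newly transcribed arrays they were 43.8%, and 28.1% with median centring. No depth is known for array signals.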
